A study of Homo sapiens with 8 samples.

Results

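Transcripts of 10 cyclins were followed through RNA sequencing of EA.hy926 cells from which 1 of 2 enhancers had been deleted. The genes are the D-type cyclins CCND1, CCND2 and CCND3, the E-type cyclins CCNE1 and CCNE2, the A-type cyclin CCNA2, the B-type cyclins CCNB1 and CCNB2, and CCNF and CCNG2. They were picked by symbol, not by their values, from a table of 65572 RefSeq transcripts that was reduced to 27946 genes by keeping, for each symbol, the transcript with the highest mean. All 10 were found. Of these, 9 reached the minimum level for testing, as did 13790 genes in all.

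EA.hy926 is an immortalized line made by fusing endothelial cells of the human umbilical vein with lung carcinoma cells. The 8 libraries came from total RNA depleted of ribosomal RNA. Control EA.hy926 cells gave 2 of them. Another 3 came from clonal lines that had lost E2, an enhancer on chromosome 16 (ΔE2), and the last 3 from clonal lines that had lost the neighbouring element SE12313-b of the same super-enhancer (ΔSE12313-b), each deletion having been made with Cas9 ribonucleoproteins and a pair of guide RNAs. Each replicate of a deletion is thus 1 clone. For the proliferation assay the study describes its control cells as having received guide RNAs and been grown beside the clones, and it does not state whether these same cells gave the control RNA, so clonal growth and deletion cannot be told apart in any comparison with the control. Both deletions are set against the same 2 control libraries.

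The libraries held between 12067558 and 19101153 reads, of which 7802376 to 13374180 fell on the genes kept. In the control these were 8151528 of 12696174 and 7802376 of 12067558 reads. In ΔE2 they were 13374180 of 19101153, 12223127 of 17124023 and 9981653 of 13616466. In ΔSE12313-b they were 12588452 of 16085523, 11147141 of 14814168 and 12463688 of 15890259, so the share on genes differed between the groups. The control libraries differed by little more than counting noise (chi-square per degree of freedom 1.19), while pairs of clones differed by 4.00 to 20.7 in ΔE2 and by 8.41 to 22.9 in ΔSE12313-b. Nothing in the labels says that the control libraries came from separate cultures, so the p-values measure the spread between these libraries. ADAMTS18, the gene on chromosome 16 that the study ties to the enhancers, was at 0.682 and 0.859 FPKM in the control libraries, at 0.087 to 0.149 in the ΔE2 clones and at 0.128 to 0.232 in those of ΔSE12313-b. FPKM are reads per kilobase of transcript, scaled to all reads of the library and not only to those on genes. Levels can thus be set side by side between genes of a library. Of 11 endothelial markers 9 passed the minimum, while CLDN5 was at 0 and KDR at most at 0.292 FPKM in every library.

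Cyclins are the regulatory subunits of the cyclin-dependent kinases (CDKs), and most are made and destroyed within each division. D-type cyclins answer to growth factors and activate CDK4 and CDK6 in G1, E-type cyclins activate CDK2 at the entry into S phase, cyclin A2 works with CDK2 and CDK1 through S phase and G2, and the B-type cyclins drive mitosis with CDK1. Cyclin F binds no CDK and is the substrate receptor of an SCF ubiquitin ligase, and cyclin G2 is an unconventional cyclin that has been linked to arrested and quiescent cells. Genes for G1/S cyclins are classically controlled by E2F factors. Many genes of G2 and mitosis carry NF-Y sites (CCAAT) and a cell cycle genes homology region (TTTGAA) near their start.

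These letters were searched on both strands from 250 bases before to 50 bases after the start of the transcript kept, in the GRCh37 genome, for the 9 members tested and for 11664 protein-coding genes tested. The searched E2F-like word was TTTNNCGC. None of the words found in the members overlapped another. The members shown are chosen for their different behaviour: CCNB2 as 1 of the 4 with the largest rises, CCNF for an intermediate one and CCND1 for its high level in every library. Each sequence is the 250 bases before the start, 5′ to 3′, with the matches in capitals. They lie at chr15:59397034-59397283 (CCNB2), chr16:2479145-2479394 (CCNF) and chr11:69455623-69455872 (CCND1), all on the plus strand.
CCNB2: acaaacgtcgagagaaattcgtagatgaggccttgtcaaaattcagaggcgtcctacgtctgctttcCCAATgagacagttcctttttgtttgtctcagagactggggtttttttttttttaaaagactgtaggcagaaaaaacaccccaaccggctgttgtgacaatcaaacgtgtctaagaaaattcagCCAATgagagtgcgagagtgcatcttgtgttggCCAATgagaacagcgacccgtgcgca
CCNF: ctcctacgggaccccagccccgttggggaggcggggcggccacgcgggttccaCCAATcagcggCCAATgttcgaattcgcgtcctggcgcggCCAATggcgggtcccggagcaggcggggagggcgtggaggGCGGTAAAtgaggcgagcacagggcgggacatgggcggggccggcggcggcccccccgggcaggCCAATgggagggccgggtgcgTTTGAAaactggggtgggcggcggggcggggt
CCND1: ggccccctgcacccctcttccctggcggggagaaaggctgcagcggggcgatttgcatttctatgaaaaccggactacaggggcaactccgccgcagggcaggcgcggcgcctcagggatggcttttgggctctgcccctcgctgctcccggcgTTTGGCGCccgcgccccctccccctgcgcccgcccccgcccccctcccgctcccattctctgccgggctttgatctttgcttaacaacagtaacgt

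Counted from the start, the NF-Y word begins at -183, -59 and -26 in CCNB2 and at -197, -186, -157 and -53 in CCNF. The homology word begins at -32 in CCNF, and the E2F-like word at -117 in CCNF, on the other strand, and at -96 in CCND1. CCNB2 also held the NF-Y word at 8 and the homology word at 33 after its start. At least 1 NF-Y word was present in 36.6% of the 11664 windows and 3 or more in 5.14%, whereas CCNB2 and CCNF held 4 each, and CCNB1, CCND3 and CCNE2 held 1. The homology word was present in 10.7% of all windows, among them those of CCNB2 and CCNF, and the E2F-like word in 9.89%, among them those of CCND1 and CCNF. The windows of CCNA2, CCNE1 and CCNG2 held none of these letters, which says only that these words are not in this stretch.

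Against the control, 7 of the 10 cyclins rose in ΔE2 and the same 7 in ΔSE12313-b, and none fell. To be called, a gene had to change 2-fold or more with an adjusted p under 0.05, from limma on log2(FPKM + 0.1) with Benjamini-Hochberg adjustment over the 13790 genes. Among all genes tested, 11.2% were called higher and 8.36% lower in ΔE2, and 14.7% higher and 7.83% lower in ΔSE12313-b. CCNA2, CCNB1, CCNB2 and CCNE2 rose most, 13.5-fold to 23.7-fold, and CCND3, CCNE1 and CCNF rose 3.63-fold to 6.39-fold. CCND1 changed by less than 2-fold, CCNG2 did not pass the test, and CCND2 was not detected. Of the members that did not rise, 0 had a lower level at an unadjusted p under 0.05 by limma in either deletion, and limma's voom method on the recovered reads also called 0 lower. CCNG2 stood at -0.37 in ΔE2 and -0.14 in ΔSE12313-b on the log2 scale in the main fit, while CCND1 was below 0 only under some alternatives. CCND1 under quantile normalization in ΔSE12313-b and CCNG2 without 1 clone in ΔE2 had an adjusted p under 0.05 by limma. These values are given with the genes. The median gene stood 0.14 higher on the log2 scale in ΔE2 and 0.27 higher in ΔSE12313-b, and relative to it the 7 rises spanned 1.72 to 4.30 and 1.85 to 4.29. The clones also had a larger share of their reads on the genes kept, and its part in this shift of the median gene was not tested. CCNE2 passed the minimum level only through the clones, since 1 control library was below it. From RNA of whole cultures alone, a larger share of cells in a phase and more transcript per cell cannot be told apart. In separate assays, the study reported slower proliferation of both deletions than of control cells. It also reported more cells in G0/G1 and fewer in S phase, and no clone had a higher mean share in G2/M than the control. How the cyclin transcripts relate to these measurements was not tested.

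**Figure D1:**
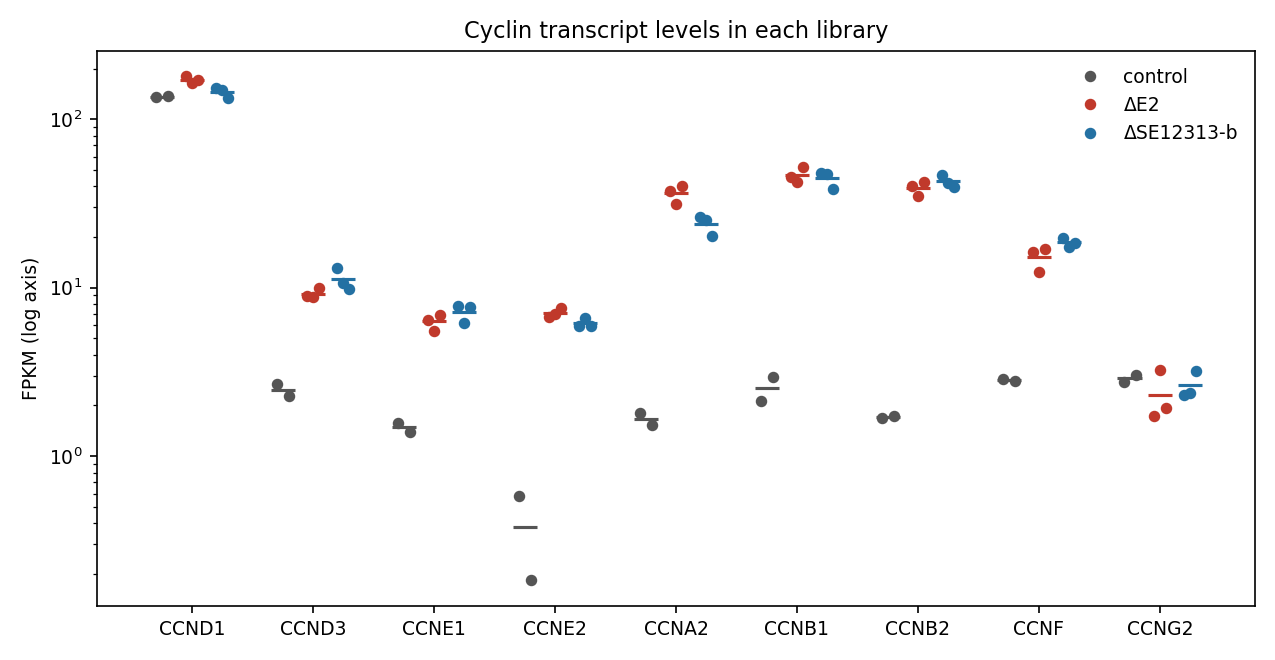
FPKM (log axis) of the 9 cyclins detected, 1 point per library, with control in grey, ΔE2 in red and ΔSE12313-b in blue, and the group mean as a bar. CCNA2, CCNB1 and CCNB2 sit at 1.54 to 2.96 FPKM in the control and at 20.3 to 51.8 in the clones, while CCND1 stays above 133 in every library and the CCNG2 groups overlap in part.

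The D-type cyclins went 3 ways. CCND1 (NM_053056, chr11:69455873-69469242, plus strand) was by far the most abundant, at 135 and 137 FPKM in the control, 181, 164 and 170 in the clones of ΔE2 and 154, 150 and 133 in those of ΔSE12313-b. All ΔE2 clones were above both controls, and the ΔSE12313-b clones fell on both sides of them. The log2 fold change of CCND1 was 0.33 ± 0.08 (SE) in ΔE2 (adjusted p = 0.0102, limma with Benjamini-Hochberg adjustment), below the 2-fold limit, and turned to -0.09 under quantile normalization. In ΔSE12313-b it was 0.10 ± 0.08 (adjusted p = 0.346 by limma, 95% interval -0.10 to 0.29), and it was -0.19 when each library was centred on its median gene, -0.19 by voom and -0.47 under quantile normalization, the last with an adjusted p of 0.00684 by limma. No direction is therefore given for CCND1.

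CCND3 (NM_001760, chr6:41902671-41909586, minus strand), which like CCND1 activates CDK4 and CDK6, was low in the control, at 2.69 and 2.27 FPKM. It reached 8.97, 8.82 and 9.93 in ΔE2 and 13.1, 10.7 and 9.81 in ΔSE12313-b. Every clone was above both controls. CCND3 rose by 1.86 ± 0.14 and 2.12 ± 0.14 on the log2 scale (adjusted p = 2.78e-05 and 1.11e-05, limma). The 6 listed transcripts of CCND3, which share most of their exons and so most of their reads, gave 1.83 to 1.87 in ΔE2 and 2.09 to 2.14 in ΔSE12313-b.

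CCND2 (NM_001759, chr12:4382902-4414522, plus strand), the third gene of the type, had 0 reads in all 8 libraries. At these depths 3 reads, the upper limit that a count of 0 allows, correspond to 0.0241 to 0.0382 FPKM. Its antisense neighbour CCND2-AS1, which overlaps it, was at 0 as well. The ratio of CCND3 to CCND1 was 0.0166 and 0.0199 in control libraries, 0.0496 to 0.0584 without E2 and 0.0716 to 0.0851 without SE12313-b, with no overlap between the 3 groups.

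The E-type cyclins both rose, from different levels. CCNE1 (NM_001322262, chr19:30302901-30315224, plus strand) was at 1.58 and 1.40 FPKM in the control, at 6.43, 5.54 and 6.93 in ΔE2 and at 7.77, 6.16 and 7.73 in ΔSE12313-b. All clones were above both controls, and the ranges of the deletions overlapped. It rose by 2.01 ± 0.15 and 2.20 ± 0.15 on the log2 scale (adjusted p = 2.35e-05 and 1.2e-05, limma). Its 4 transcripts gave at most 2.08 and 2.31.

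CCNE2 (NM_057749, chr8:95892453-95907482, minus strand) was the least abundant detected cyclin in the control, at 0.581 and 0.183 FPKM, which rest on 20 and 6 reads. The clones gave 6.74, 6.96 and 7.58 FPKM in ΔE2 and 5.96, 6.57 and 5.94 in ΔSE12313-b, on 256 to 349 reads each. CCNE2 rose by 4.03 ± 0.31 and 3.83 ± 0.31 on the log2 scale (adjusted p = 3.29e-05 and 3.2e-05, limma). The size depends on the control library used, being 4.67 and 4.47 without control replicate 1 and 3.40 and 3.20 without control replicate 2, and it was 2.56 and 2.39 with a pseudocount of 1 FPKM. The 95% intervals of the log2 fold changes of CCNE1 (1.67 to 2.34 in ΔE2, 1.86 to 2.54 in ΔSE12313-b) and CCNE2 (3.31 to 4.75 and 3.11 to 4.55) did not overlap. The ratio of CCNE2 to CCNE1 was 0.131 and 0.368 in the control and 0.767 to 1.25 in the 6 clones. Whether the genes differ in the size of their rise was not tested.

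CCNA2 (NM_001237, chr4:122737599-122745156, minus strand), the cyclin of S phase and G2, was at 1.79 and 1.54 FPKM in the control. Its level was 37.6, 31.6 and 40.3 in clones without E2 and 26.2, 25.2 and 20.3 in clones without SE12313-b. The 3 groups were fully apart, with the ΔE2 clones highest. CCNA2 rose by 4.37 ± 0.15 in ΔE2 and by 3.76 ± 0.15 in ΔSE12313-b on the log2 scale (adjusted p = 4.73e-07 and 8.98e-07, limma), or 20.7-fold and 13.5-fold. Among the tested genes of the same library, it went from percentiles 19.2 and 21.6 in the control to 76.7 to 89.6 in the clones.

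CCNB1 (NM_031966, chr5:68462837-68474070, plus strand), the main partner of CDK1 at the entry into mitosis, was at 2.12 and 2.96 FPKM in the control. It was at 45.3, 42.2 and 51.8 in ΔE2 and at 48.2, 47.2 and 38.6 in ΔSE12313-b, with overlapping ranges of the deletions far above the control. CCNB1 rose by 4.15 ± 0.16 and 4.10 ± 0.16 on the log2 scale (adjusted p = 8.94e-07 and 9.7e-07, limma). Its 3 transcripts gave 4.08 to 4.15 and 4.01 to 4.10.

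CCNB2 (NM_004701, chr15:59397284-59417244, plus strand), the second mitotic B-type cyclin, was among the 4 members with the largest rises. Its control values of 1.69 and 1.72 FPKM rest on 33 and 32 reads. The ΔE2 clones were at 40.3, 35.1 and 42.5 and the ΔSE12313-b clones at 46.8, 41.9 and 39.8 FPKM. CCNB2 rose by 4.44 ± 0.10 and 4.57 ± 0.10 on the log2 scale (adjusted p = 1.97e-07 and 1.48e-07, limma), or 21.7-fold and 23.7-fold.

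CCNF (NM_001761, chr16:2479395-2508859, plus strand) was at 2.86 and 2.80 FPKM in the control, at 16.2, 12.4 and 16.9 in ΔE2 and at 19.8, 17.6 and 18.5 in ΔSE12313-b. Every ΔSE12313-b clone was above every ΔE2 clone. CCNF rose by 2.37 ± 0.14 and 2.68 ± 0.14 on the log2 scale (adjusted p = 6.43e-06 and 3.05e-06, limma), and its 2 transcripts differed by little, with 2.35 to 2.37 and 2.67 to 2.68. It is the only member on chromosome 16, which carries both deleted elements. CCNF lies on the short arm, at 16p13.3, while the study places both elements on the long arm.

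CCNG2 (NM_004354, chr4:78078357-78091213, plus strand) was the exception among the cyclins with low control levels. It was at 2.75 and 3.03 FPKM in the control, at 1.73, 3.25 and 1.92 in ΔE2 and at 2.32, 2.38 and 3.23 in ΔSE12313-b, so that in each deletion 1 clone exceeded both controls and the other two lay below them. The log2 fold change was -0.37 ± 0.27 in ΔE2 (adjusted p = 0.276, limma, 95% interval -0.99 to 0.25) and -0.14 ± 0.27 in ΔSE12313-b (adjusted p = 0.674, -0.76 to 0.48). Without ΔE2 replicate 2 it was -0.63 in ΔE2 (adjusted p = 0.0262, limma), still under 2-fold. These intervals do not reach the rises seen in the 7 other cyclins.

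**Figure D2:**
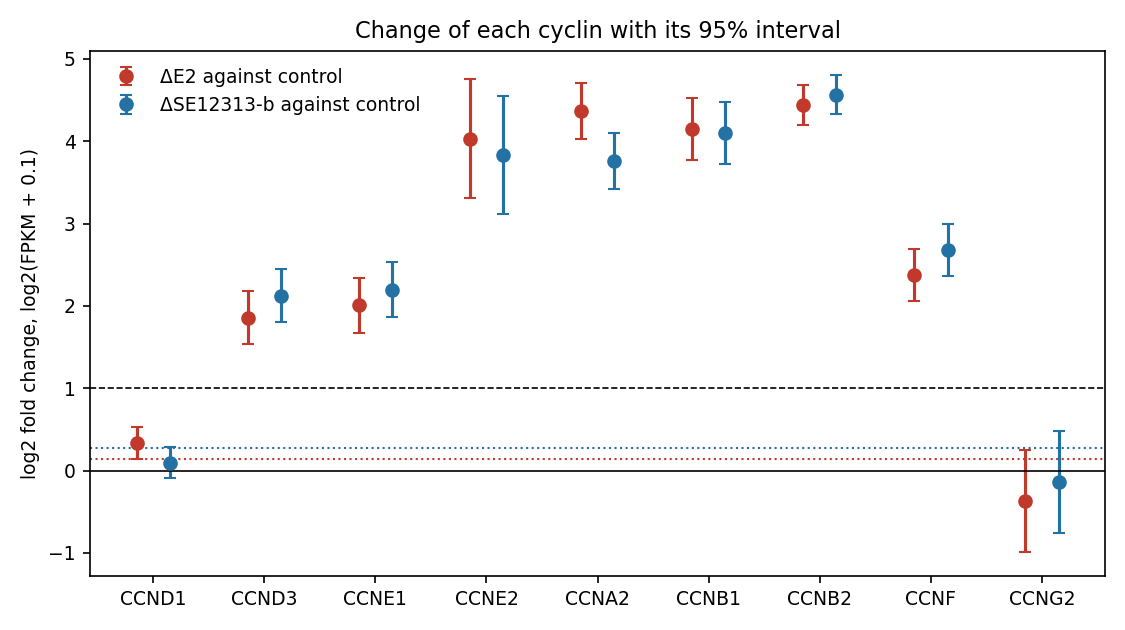
Log2 fold change against the control on the log2(FPKM + 0.1) scale for ΔE2 (red) and ΔSE12313-b (blue), with 95% intervals from limma. The dashed line marks 2-fold and the dotted lines the median of all genes (0.14 and 0.27). CCNA2, CCNB1, CCNB2 and CCNE2 lie between 3.76 and 4.57, CCND3, CCNE1 and CCNF between 1.86 and 2.68, and CCND1, whose direction turns under quantile normalization in both deletions, and CCNG2 lie under 2-fold.

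Levels of different cyclins, which FPKM corrects for length, were ordered differently in the control and in the clones. In the control CCND1 stood alone, followed by CCNG2, CCNF, CCNB1 and CCND3, whose neighbours overlapped, then by CCNB2, CCNA2 and CCNE1, also overlapping, and last by CCNE2. In the clones CCND1 was still first. It was followed in ΔE2 by CCNB1, CCNB2 and CCNA2, neighbours whose ranges overlapped, then CCNF, CCND3, CCNE2 and CCNE1, of which only the E-type pair overlapped, and last by CCNG2. In ΔSE12313-b CCNB1 and CCNB2 overlapped, CCNA2 and CCNF stood apart from each neighbour, CCND3 came next, CCNE1 and CCNE2 overlapped, and CCNG2 was last.

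Summed over the 10 genes, the FPKM were 151 and 152 in the control libraries, 310 to 348 in ΔE2 and 277 to 324 in ΔSE12313-b. CCND1 made up 89.4% and 89.6% of this sum in the control, 48.9% to 52.9% in ΔE2 and 47.5% to 48.7% in ΔSE12313-b. CCNA2, CCNB1 and CCNB2 together made up 3.70% and 4.08% in the control, 35.2% to 38.7% in ΔE2 and 35.6% to 37.4% in ΔSE12313-b. The shares of the S phase and mitotic cyclins were thus close to each other in both deletions, and far from the control, as the stacked plot of summed levels shows.

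The clones of a deletion were not equal. Of the 7 cyclins that rose, ΔE2 replicate 2 had the lowest level of its group in 6, and ΔSE12313-b replicate 3 in 5. In both of these clones CCNG2 was the highest of the group, at 0.53 and 0.29 above the group mean on the log2 scale. ΔE2 replicate 3 was highest in all 7. These ranks describe single clones of 3, and the 7 genes of a library are not independent of each other. The SD between clones on the log2 scale was 0.47 for CCNG2 in ΔE2 and 0.07 to 0.24 for the other detected cyclins there, beside a median of 0.15 over all genes tested.

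**Figure D3:**
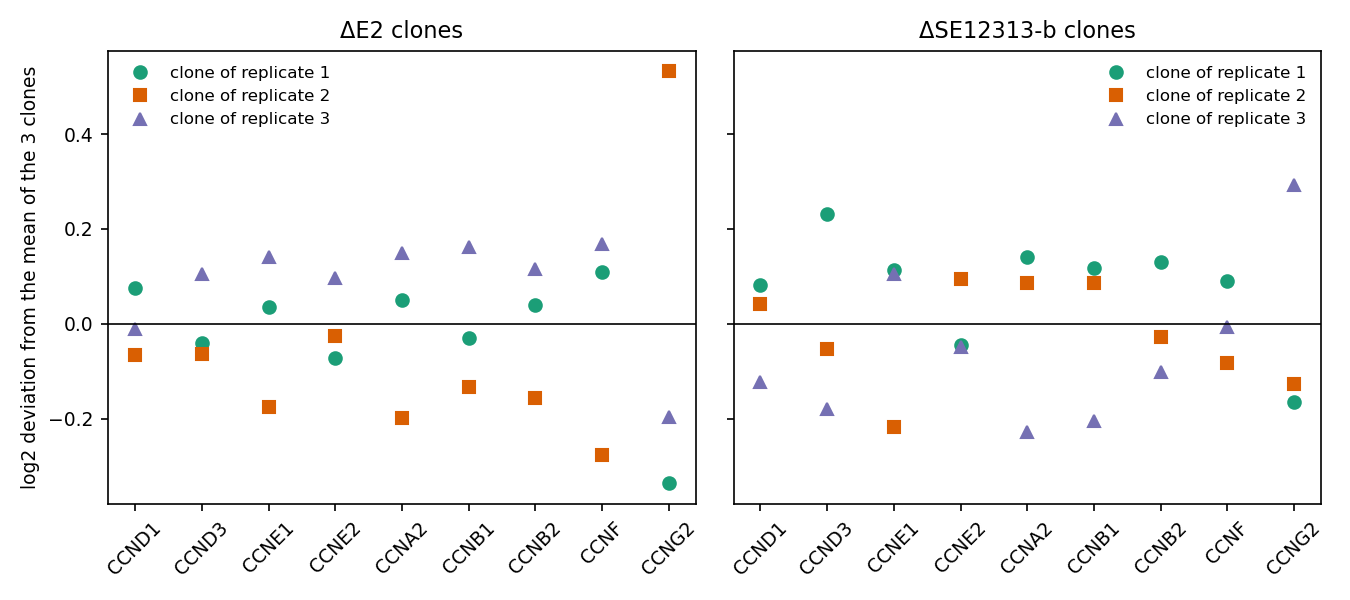
Deviation of each clone from the mean of its 3 clones, on the log2(FPKM + 0.1) scale, for each cyclin, with ΔE2 on the left and ΔSE12313-b on the right. ΔE2 replicate 2 lies lowest for 6 of the 7 cyclins that rose and 0.53 above the mean for CCNG2, and ΔSE12313-b replicate 3 lies lowest for 5 of 7 and 0.29 above the mean for CCNG2.

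Set against each other directly, the deletions were compared cyclin by cyclin. By limma, 0 of the 9 tested members were called, 2 were higher in ΔE2 at an adjusted p under 0.05 with a change under 2-fold, and 1 more was lower in ΔE2 at an unadjusted p under 0.05. Voom on the recovered reads called 0 as well. Among all genes, 1.6% were called higher and 2.63% lower in ΔE2 than in ΔSE12313-b, so 0 of 9 is near the share of all genes. The share of all genes under the p limits without the 2-fold limit was not counted. CCNA2 was 1.53-fold higher in ΔE2, a log2 difference of 0.61 ± 0.13 with a 95% interval of 0.31 to 0.91 (adjusted p = 0.0129, limma with Benjamini-Hochberg adjustment), and all 3 ΔE2 clones were above all 3 ΔSE12313-b clones. Over all alternatives and with each library left out in turn, this difference stayed between 0.50 and 0.74, with adjusted p from 0.00208 to 0.0483.

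The ratio of CCNB1 to CCNA2 was 1.21, 1.33 and 1.29 in clones without E2 and 1.84, 1.87 and 1.90 in clones without SE12313-b. The control libraries, at 1.18 and 1.92, covered both ranges on few reads (53 to 77 for each gene). CCND1 was 1.18-fold higher in ΔE2 than in ΔSE12313-b, a log2 difference of 0.24 ± 0.07 (adjusted p = 0.0486, limma), and its adjusted p rose to between 0.0501 and 0.138 when any 1 of the 8 libraries was left out. Over all alternatives the difference of CCND1 lay between 0.18 and 0.37, with the highest values when libraries were centred (adjusted p = 0.0127, limma), by voom (adjusted p = 0.00872) and under quantile normalization (adjusted p = 0.0273). The adjusted p by limma was 0.0799 without the trend and 0.0599 with FPKM above 0 in at least 2 libraries as the minimum. It was 0.0878 with only the groups compared and 0.0805 with the replicate number as a block. CCNF had a log2 difference of -0.30 ± 0.12 (adjusted p = 0.104, 95% interval -0.59 to -0.02, limma) and CCND3 one of -0.27 ± 0.12 (adjusted p = 0.155, -0.55 to 0.02). For CCNB1 the interval ran from -0.28 to 0.39, for CCNB2 from -0.34 to 0.09, for CCNE1 from -0.49 to 0.11, for CCNE2 from -0.44 to 0.84 and for CCNG2 from -0.78 to 0.32.

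Some neighbouring genes overlap the cyclins. CCNA2 shares 578 bases with EXOSC9 (chr4:122722472-122738176) on the opposite strand, which was at 9.76, 15.5 and 11.6 FPKM in control, ΔE2 and ΔSE12313-b on average. The kit marked strands, but how strands were treated in counting is not given in the sources used here. If reads of EXOSC9 were spread evenly and counted on both strands, they would add 1.98, 3.14 and 2.35 FPKM to CCNA2, more than the 1.67 FPKM measured for it in the control. CCNE2 shares 269 bases with INTS8, also on the opposite strand and at 11.8, 11.3 and 12.8 FPKM, which would add 1.17 FPKM in the control, where 0.382 was measured. How much of either neighbour is contained in the low control values was not tested. Within CCNF lies the microRNA gene MIR6767 on the same strand, with at most 66 bases shared.

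The kinases that pair with these cyclins moved in part. CDK1, the partner of CCNB1 and CCNB2, rose from 2.85 ± 0.16 FPKM (SD, n = 2) to 47.9 ± 5.93 in ΔE2 and 62.6 ± 2.74 in ΔSE12313-b (n = 3 each), by 4.02 and 4.41 on the log2 scale. CDK2, which works with E-type cyclins and cyclin A2, rose by 1.61 and 1.72. CDK4 went from 51.2 ± 3.58 FPKM in control libraries to 103 ± 7.85 without E2 and 137 ± 5.91 without SE12313-b, with log2 fold changes of 1.01 and 1.42. The call of CDK4 in ΔE2 was lost with each library centred (0.85), by voom (0.84) and under quantile normalization (0.65), and in ΔSE12313-b under quantile normalization (0.91). CDK6 was low, at 1.30 ± 0.12 FPKM in the control, and rose by 1.47 in ΔE2, with 0.86 in ΔSE12313-b (adjusted p = 0.0452, limma), under 2-fold. Of 18 CDKs tested, 4 rose and 0 fell in each deletion, the fourth in ΔSE12313-b being CDK14 (1.03, not called under any of the other scalings), and the median of the list was -0.02 and 0.22. Over all genes, 11.2% and 14.7% were called higher and 8.36% and 7.83% lower in the main fit. With each library centred, 3 rose in each deletion while 2 fell in ΔE2 and 3 in ΔSE12313-b. Under quantile normalization 3 rose and 3 fell in ΔE2, and 2 rose and 4 fell in ΔSE12313-b. By voom 3 rose in each deletion, while 2 fell in ΔE2 and 4 in ΔSE12313-b. Of all 13790 genes, 1170 were called higher and 1464 lower in ΔE2 with each library centred, and 1201 and 1570 in ΔSE12313-b. Under quantile normalization these counts were 1309 and 1385 in ΔE2, and 1400 and 1398 in ΔSE12313-b. With voom they were 1135 and 1588 in ΔE2, and 1201 and 1663 in ΔSE12313-b. CDK14, a kinase that works with cyclin Y, was also the only CDK called between the deletions, lower in ΔE2 by 1.72 on the log2 scale.

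Other cyclins, outside the phase-bound group, were taken as a list of their own. Of 15 tested, 0 rose and 3 fell in ΔE2 (CCNL1, CCNL2 and CCNO), and 1 rose (CCNJ, 1.07) and 2 fell (CCNL2 and CCNO) in ΔSE12313-b, with a list median of 0.19 and 0.23. Over all genes 11.2% were called higher and 8.36% lower in ΔE2, and 14.7% and 7.83% in ΔSE12313-b. CCNL2, a cyclin of transcription and splicing, fell by 1.90 and 1.66 on the log2 scale, and CCNO, which is known from multiciliated cells, fell by 1.58 and 1.64. The call of CCNJ was lost under each of the other scalings, while CCNL1 was then also called lower in ΔSE12313-b. By an unadjusted p under 0.05, members of the list with changes under 2-fold went both ways, as with CCNG1 (0.62 and 0.80) and CCNI (-0.66 and -0.65), the latter called lower in both deletions under quantile normalization.

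Of 8 enzymes and adaptors that act on cyclin-CDK complexes 7 rose and 0 fell in each deletion, beside 11.2% and 14.7% of all genes called higher, with list medians of 2.19 and 2.26. PKMYT1, the membrane-bound kinase that inhibits CDK1, rose by 4.55 and 5.34, and CDC25C, a phosphatase that activates CDK1, rose by 4.34 and 4.25. Both were below 0.5 FPKM in the control, at 0.281 ± 0.037 and 0.396 ± 0.015 FPKM (SD, n = 2), and so passed the minimum only through the clones. Kinases that restrain CDK1 and phosphatases that activate it rose together. With the other scalings 6 of 8 rose, WEE1 (1.13 and 1.08) no longer being called.

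Of 26 genes for the degradation of cyclins and its control, 6 rose and 0 fell in each deletion, beside 11.2% and 14.7% of all genes called higher. The counts of the list were the same under the other scalings, and its medians in the main fit were 0.57 and 0.66. The 6 that rose were CDC20, UBE2C, FBXO5, UBE2S, SKP2 and ANAPC15. CDC20, an activator of the anaphase-promoting complex, rose by 5.21 and 4.90. UBE2C, a ubiquitin-conjugating enzyme of that complex, rose by 4.00 and 4.07. FBXO5 is an inhibitor of the complex, so the 6 do not all act towards degradation. The listed core subunits of the complex other than ANAPC15 were not called.

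Of 5 CDK inhibitors tested, CDKN3 (4.08 and 4.10), a phosphatase acting on CDKs, and CDKN2C (3.47 and 3.27), an inhibitor of CDK4 and CDK6, rose in both deletions. CDKN2C, at 0.381 ± 0.076 FPKM in the control, passed the minimum only through the clones. CDKN1A, the inhibitor p21, was the most abundant of them, with 80.7 ± 1.08 FPKM in control libraries, 41.5 ± 4.26 without E2 and 35.0 ± 2.41 without SE12313-b. It fell by 1.20 on the log2 scale in ΔSE12313-b, and its value in ΔE2 was -0.96, just under 2-fold and called under each of the other scalings. CDKN2A and CDKN2B were at 0 in all libraries. Of 6 substrates of cyclin F, 5 rose in ΔE2 and 6 in ΔSE12313-b, with medians of 3.70 and 3.77. RRM2, a subunit of ribonucleotide reductase, rose most, by 6.50 and 6.30, followed by EXO1, an exonuclease of DNA repair, with 4.99 and 5.10, on control values of 0.838 ± 0.321 and 0.193 ± 0.133 FPKM. EXO1 thus passed the minimum only through the clones. SLBP (1.00 and 1.16) was not called under the other scalings. The medians of all lists stand beside 0.14 and 0.27 over all genes tested, and the counts of inhibitors and of substrates beside the same 11.2% and 14.7% of genes called higher. All these values are of the main fit. List counts under the other scalings stand beside the counts over all genes given with the CDKs.

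The genes whose pattern over the 8 libraries was nearest to each cyclin were found by the mean absolute difference of log2(FPKM + 0.1) after centring each gene on its own mean. For CCNA2 these were CENPU (0.11), DDIAS (0.11) and HIST1H3A (0.13). For CCNB1 they were PRC1 (0.07), SPAG5 (0.08) and BUB1 (0.09), and for CCNB2 KIF15 (0.06), CDC6 (0.07) and DTL (0.08). PRC1, SPAG5, BUB1 and KIF15 are known for roles in the spindle and at kinetochores, CDC6 and DTL for roles in DNA replication.

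CCNE1 was nearest to TUBA1A (0.07), MCM3 (0.08) and TUBB3 (0.08), and CCNE2 less closely to PIF1 (0.15) and APOBEC3A (0.18). CCNF was nearest to RFC2 (0.08), SMC4 (0.08) and TUBB2A (0.08), CCND3 to FOXRED2 (0.07), GALNT10 (0.08) and NCAPD2 (0.09). CCND1 was nearest to MAP4K3 (0.05), SMIM8 (0.05) and DIS3 (0.05), and CCNG2 to HIF1A (0.07), KCTD12 (0.08) and KLC4 (0.08). Tubulins, histone H3 genes and APOBEC3A have near-identical copies in the genome, so their levels are uncertain. Among the members themselves, CCNB1 and CCNB2 (0.16), CCND3 and CCNE1 (0.13) and CCNE1 and CCNF (0.17) were the nearest pairs, and CCNB2 and CCNG2 (1.78) were farthest apart.

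Markers of other cell types were set beside these results. Of 7 epithelial markers 3 passed the minimum, the keratins KRT7, KRT8 and KRT18, and the summed level of the list was 361 and 363 FPKM in the control, 1084 to 1210 in ΔE2 and 811 to 1069 in ΔSE12313-b, while CDH1 was at 0 and KRT19 at most at 0.16. EPCAM was at 0.243 to 0.554 FPKM in the control, 0.171 to 0.215 in ΔE2 and 0 to 0.109 in ΔSE12313-b, and CLDN4 at 0.227 to 0.431, 0 to 0.096 and 0.103 to 0.185. The endothelial list summed to 312 FPKM in both controls, to 334 to 522 in ΔE2 and to 334 to 453 in ΔSE12313-b. Its members went different ways. PECAM1 was at 5.93 to 6.03 FPKM in the control and at 10.2 to 28.2 in the clones, and ERG at 7.51 to 7.85 and 14.4 to 23.2, while VWF was at 1.83 to 2.02 in the control and at 0.346 to 0.831 in the clones, and TIE1 at 55.3 to 56.8 and 39.1 to 53.5. Fibroblast markers summed to at most 0.19 FPKM, with DCN and LUM at 0, and leukocyte markers to at most 2.68, nearly all of it LYZ in ΔE2, with CD3E at 0. Of the epithelial list, KRT7, KRT8 and KRT18 were higher in every clone than in the control, as were the 7 cyclins that rose, and EPCAM and CLDN4 were not. Their part in the result was not tested.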

How the data were processed

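Reads (single end) were trimmed by the authors with Trim Galore 0.4.4 and mapped to GRCh37 with STAR 2.5.4b. The authors deposited FPKM per RefSeq transcript, 1 column per library. The study counted reads on Gencode genes with featureCounts for its own calls. For this table of RefSeq transcripts, the counting tool, RefSeq release and strand handling are not given in the sources used here. The count test of the study was replaced by limma because the values are FPKM.

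The reads behind each value were recovered from the steps of FPKM times length (100% of values checked were whole within 0.1 read) and served for depth and for voom, with TMM factors from own code. The depths of 12067558 to 19101153 reads cover counting error only. Genes with at least 0.5 FPKM in at least 2 of the 8 libraries were fitted as 3 groups with limma 3.58.1 in R 4.3.3 (trend, two-sided) on log2(FPKM + 0.1), which understates changes of low genes. Intervals are at 95%, p values were adjusted by Benjamini-Hochberg over 13790 genes, and a call needed 0.05 and 2-fold. The steps were tested on simulated data with the same spread in every library, so the unequal spread of controls and clones was not covered.

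Members, lists and tests were chosen with earlier results of these data known. Named are all members, their 3 nearest genes (1 is not reported here), CDK1, CDK2, CDK4 and CDK6, up to 2 called genes per direction with the largest change in each list, and genes listed where a count is 5 or fewer or that changed call between scalings, the last chosen after their values were seen. The alternatives numbered 14 per comparison.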

Additional observations from a re-analysis of the deposited data

Results flagged for a closer look

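Between the deletions, 2 cyclins differed at an adjusted p under 0.05 in limma's test of the difference itself (Benjamini-Hochberg over 13790 genes), both by less than 2-fold. For CCNA2 the log2 difference of ΔE2 minus ΔSE12313-b was 0.61, with higher values in 3 of 3 ΔE2 clones. For CCND1 it was 0.24, also with higher values in 3 of 3 ΔE2 clones, and its adjusted p of 0.0486 did not hold with any 1 library left out (0.0501 to 0.138). With each library centred the difference was 0.37 (adjusted p = 0.0127), by voom 0.36 (adjusted p = 0.00872) and under quantile normalization 0.37 (adjusted p = 0.0273). The adjusted p by limma also passed 0.05 without the trend (0.0799) and with FPKM above 0 in at least 2 libraries as the minimum (0.0599). The same held with only the groups compared (0.0878) and with the replicate block (0.0805).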

How the results depend on the processing

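The number of cyclins called was 7 in both deletions against the control under all alternatives and with each library left out (7 to 7). Between the deletions it was 0, also with each library left out (0 to 0), and 1 with a limit of 1.5-fold, where CCNA2 (0.61) was called. Values that turned sign without being called were those of CCND1 in ΔE2 under quantile normalization (-0.093) and in ΔSE12313-b with each library centred (-0.19), by voom (-0.19) and under quantile normalization (-0.47), and, between the deletions, those of CCNB1 without ΔE2 replicate 3 (-0.023) and without ΔSE12313-b replicate 3 (-0.044, with a highest value of 0.13 over the libraries left out) and of CCNB2 with each library centred (0.0043) and under quantile normalization (0.019). Over all genes, 2697 were called in ΔE2, 3112 in ΔSE12313-b and 583 between the deletions. These counts became 5054, 5802 and 1631 at 1.5-fold, 1718, 2004 and 240 with a pseudocount of 1 FPKM and, between the deletions, 383 at an adjusted p under 0.01. With each library left out they ranged from 2364 to 2880, from 2767 to 3186 and from 478 to 669. The share of calls that were higher was 57.2% in ΔE2, 65.3% in ΔSE12313-b and 37.9% between the deletions. It was 44.4%, 43.3% and 54% with centred libraries, 48.6%, 50% and 48% under quantile normalization and 41.7%, 41.9% and 50.4% by voom. In the fits without a control library the lone control was assumed to vary like the other groups.

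With the replicate number as a block, the replicate block gave 2530, 2962 and 523 calls and changed no call of a member. Deviations of same-numbered libraries correlated between -0.08 and 0.11, so the numbers do not pair the samples. Depth limits CCNE2 and CCND2 most, with 6 and 20 reads for CCNE2 in the control and 0 for CCND2 in all libraries.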
